A study of Mus musculus with 9 samples.

Results

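The effector cytokine genes Ifng, Tnf, Il2, Il4, Il5, Il10, Il13, Il17a, Il21 and Csf2 encode the secreted proteins by which activated T cells act on other cells. The 10 genes were chosen by name, with earlier results of these data known, and were found by their Ensembl identifiers among the 29229 genes of the deposited count table. They were followed in total RNA of T cells sorted from mouse spleen, with 3 libraries in each of 3 groups. Allogeneic libraries held donor T cells taken 7 days after hematopoietic stem cell transplantation into CByJ.SJL(B6)-Ptprca/J recipients (H-2d, CD45.1), which had 8 Gy of irradiation and 1000000 donor T cells. Syngeneic libraries held donor T cells taken 7 days after transplantation into B6.SJL-Ptprca Pepcb/BoyJ recipients (H-2b, CD45.1), which had 9.5 Gy and 8500000 donor T cells. Both kinds of recipient also had 5000000 T-cell-depleted marrow cells, the donors were C57BL/6 mice (CD45.2), and spleens of 2 to 4 recipients were pooled for a transplant library. Naive libraries held T cells of C57BL/6 mice that had no transplant. Female animals aged 8 to 12 weeks were used throughout, and live CD3+ CD45.2+ cells were sorted in every group. The groups therefore differed in irradiation and in the number of cells given as well as in the antigen met, and marrow-derived cells carry the same CD45.2 allele as the donor T cells.

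Helper T cells are commonly described by the cytokines they make. Interferon gamma (Ifng) marks type 1 cells, interleukins 4, 5 and 13 mark type 2 cells, interleukin 17A marks type 17 cells, and interleukin 21 is typical of follicular helper cells. Transcription of these genes follows signals of the antigen receptor through NFAT, AP-1 and NF-kappaB factors, within limits set by the chromatin of each lineage, and several of their messages are short-lived. In acute graft-versus-host disease, donor T cells that recognise foreign recipient antigens become activated and secrete cytokines.

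The libraries held 103953932 to 176678189 counts. A set of 13 T-cell markers summed to 5181 to 5580 CPM (counts scaled to a total of 1000000 per library) in allogeneic, 3978 to 4780 CPM in syngeneic and 5911 to 6423 CPM in naive libraries, and none of these markers was at 0. The ratio of Cd8a to Cd4 counts was 0.715 to 1.05 in allogeneic, 2.61 to 3.37 in syngeneic and 0.932 to 0.968 in naive libraries. A set of 13 erythroid markers summed to 59.8 to 174 CPM in allogeneic, 2452 to 6413 CPM in syngeneic and 34.2 to 36.2 CPM in naive libraries. For 10 neutrophil markers the sums were 626 to 1117 CPM, 415 to 1384 CPM and 4.24 to 8.24 CPM in the same order of groups. For 8 eosinophil markers they were 10.1 to 29.0 CPM, 2.63 to 23.5 CPM and 0.275 to 1.11 CPM, with Ear1, Ear2 and Ear6 at 0 in naive libraries. The loci Gm26917 and Gm42418, which are taken here as ribosomal RNA, held 7.87 to 17.2% of counts in allogeneic libraries, highest in library 1, against 19.4 to 22.4% in syngeneic and 15.8 to 18.8% in naive libraries. In bulk RNA, fewer cells of a type and less RNA per cell cannot be told apart. Levels below are CPM by column total. Fold changes and adjusted p-values are from edgeR's quasi-likelihood test over 19609 genes, with Benjamini-Hochberg adjustment, and a gene was called at an adjusted p under 0.05.

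Of the 10 cytokine genes, 8 passed the filter on low counts, and Il5 and Il17a did not. In allogeneic against syngeneic libraries 6 of the 8 rose, Ifng, Il4, Il10, Il13, Il21 and Csf2, and 1, Tnf, fell, while Il2 did not pass the test. Over all tested genes 24.3% were called higher, 20.7% were called lower and 45.0% were called in either direction in this comparison. Each of the 6 that rose did so by at least 4-fold, a size reached by 3.47% of all tested genes. The median log2 fold change of the 8 was 2.94, against -0.02 over all tested genes. For 7 of the 8, and for 52.7% of all tested genes, no allogeneic library had a CPM within the syngeneic range or the reverse. In allogeneic against naive libraries the same counts were 6 higher and 1 lower of 8, where 31.8% of all tested genes were called higher, 25.9% were called lower and 57.7% were called in either direction. There 7 of the 8 had separate libraries, against 65.1% of all tested genes, and 6 of the 8 rose by at least 4-fold, against 10.8%. Set against naive libraries, syngeneic libraries had 4 of 8 members higher, Ifng, Il10, Il13 and Csf2, and 1 lower, Il4, where 22.4% of all tested genes were called higher, 19.5% were called lower and 41.9% were called in either direction. The libraries were separate for 6 of the 8, against 56.5% of all tested genes, and Ifng and Csf2 rose by at least 4-fold, against 8.75%. The comparisons that share the naive libraries are not independent of each other.

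**Figure D1:**
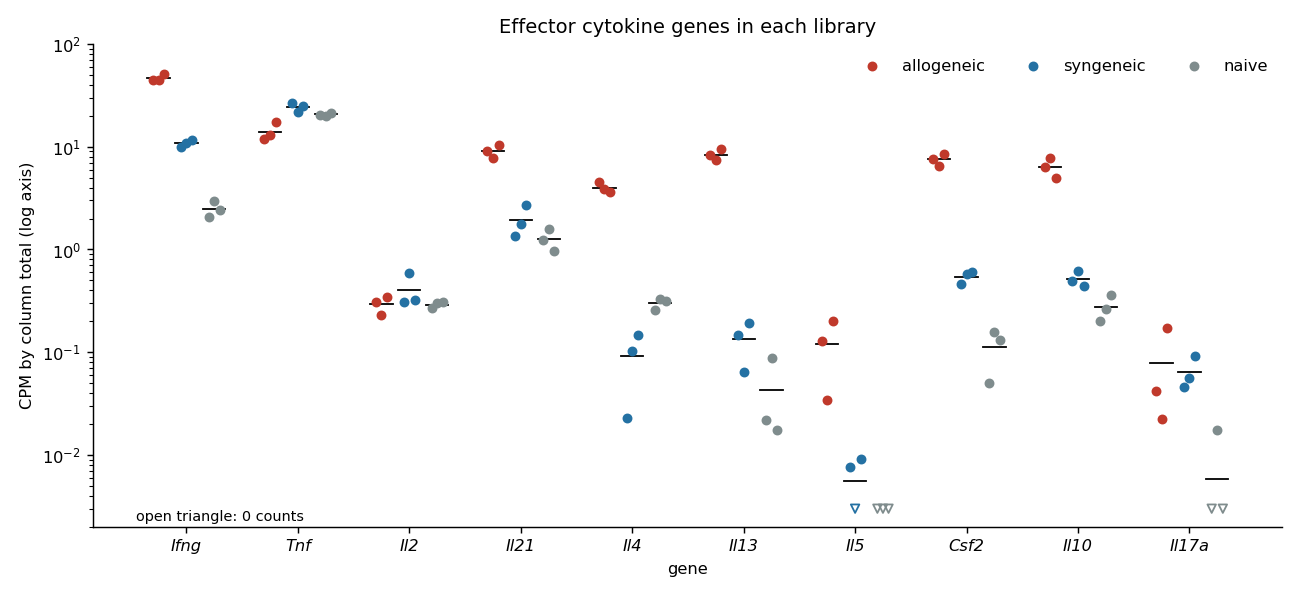
CPM by column total (log axis) of the 10 cytokine genes, with 1 point per library, black lines at group means and open triangles for libraries with 0 counts. The allogeneic points of Ifng, Il21, Il4, Il13, Csf2 and Il10 lie above all points of the other groups, those of Tnf lie below, and those of Il2 lie among them.

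Ifng, on chromosome 10 (118441046 to 118445892 of GRCm38, plus strand), encodes interferon gamma, which activates macrophages and raises antigen presentation. It stood at 45.0, 44.5 and 50.5 CPM in the allogeneic libraries, at 9.96, 10.8 and 11.6 CPM in the syngeneic libraries and at 2.08, 2.98 and 2.42 CPM in the naive libraries. The 3 groups did not overlap, with the allogeneic libraries highest and the naive libraries lowest. Ifng rose by a log2 fold change of 2.13 ± 0.12 (SE) in allogeneic against syngeneic libraries (edgeR adjusted p = 1.81e-07). The step of syngeneic against naive libraries was 2.15 ± 0.12 (edgeR adjusted p = 2.01e-07), and that of allogeneic against naive libraries was 4.28 ± 0.13 (edgeR adjusted p = 1.52e-09). NK cells also make interferon gamma. A set of 11 NK-cell markers, several of which activated T cells share, Nkg7 as the most abundant, summed to 709 to 828 CPM in allogeneic, 290 to 346 CPM in syngeneic and 138 to 147 CPM in naive libraries, with Klra8 at 0 in allogeneic libraries. Without Nkg7 the sums were 209 to 275 CPM in allogeneic, 39.0 to 78.0 CPM in syngeneic and 20.8 to 30.0 CPM in naive libraries. In allogeneic against syngeneic libraries 6 of these markers rose and 4, Klra4, Klra8, Klra9 and Klre1, fell. Of all tested genes 24.3% were called higher and 20.7% lower there. Ncr1, the NK receptor NKp46, averaged 1.72 CPM in allogeneic, 0.634 CPM in syngeneic and 0.271 CPM in naive libraries. It was chosen after its values were seen. Klra4 averaged 0.0132, 1.25 and 0.126 CPM in the same order of groups, and Klra9 averaged 0.0104, 0.456 and 0.337 CPM. The part of NK cells in the Ifng level was not tested.

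Tnf, on chromosome 17 (35199381 to 35202007, minus strand), encodes tumour necrosis factor, an inflammatory cytokine of T cells and macrophages. It was the called member that fell in allogeneic libraries, where it stood at 11.9, 12.9 and 17.4 CPM, against 26.6, 21.6 and 24.7 CPM in syngeneic and 20.4, 20.1 and 21.3 CPM in naive libraries. Every allogeneic library was below every library of the other groups, and allogeneic library 3 was nearest to them. The log2 fold change was -0.79 ± 0.14 in allogeneic against syngeneic libraries (edgeR adjusted p = 0.000819) and -0.51 ± 0.14 in allogeneic against naive libraries (edgeR adjusted p = 0.00812). The value for syngeneic against naive libraries was 0.28 ± 0.14 and did not pass (edgeR adjusted p = 0.125). A set of 15 macrophage and monocyte markers summed to 244 to 374 CPM in allogeneic, 314 to 476 CPM in syngeneic and 91.6 to 95.3 CPM in naive libraries. Ly6c2, which T cells also express, held much of these sums, at 168 CPM in allogeneic, 227 CPM in syngeneic and 85.7 CPM in naive libraries, and without it they were 90.4 to 180 CPM, 68.3 to 256 CPM and 7.39 to 8.30 CPM in the same order of groups. In allogeneic against syngeneic libraries 11 of the markers fell and 2 rose, or 1 without allogeneic library 2 or 3. In allogeneic against naive libraries 13 of the 15 rose, where 31.8% of all tested genes were called higher. None of the 15 was at 0 in the transplant groups, Fcgr1 was at 0 in naive libraries, and the part of macrophages in the Tnf level was not tested.

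Il4 and Il13 encode the type 2 cytokines interleukin 4, which drives type 2 differentiation and antibody class switching, and interleukin 13, which acts on epithelium and macrophages. They lie 12.7 kb apart on chromosome 11 (Il4 at 53602982 to 53618669 and Il13 at 53631324 to 53634702, both on the minus strand). Il13 stood at 8.22, 7.49 and 9.48 CPM in the allogeneic libraries, at 0.146, 0.0649 and 0.194 CPM in the syngeneic libraries and at 0.0217, 0.0882 and 0.0174 CPM in the naive libraries. In counts this was 969, 1324 and 986 reads in allogeneic, 19, 7 and 21 in syngeneic and 3, 10 and 2 in naive libraries. The allogeneic libraries stood far above both other groups, which overlapped each other. The log2 fold change of Il13 was 5.96 ± 0.42 in allogeneic against syngeneic libraries (edgeR adjusted p = 9.77e-07), the 46th highest of the 19609 genes. Against naive libraries it was 7.69 ± 0.48 (edgeR adjusted p = 1.24e-07), and it was 8.69 without naive library 2.

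Il4 stood at 4.53, 3.85 and 3.60 CPM in the allogeneic libraries, at 0.0230, 0.102 and 0.148 CPM in the syngeneic libraries and at 0.260, 0.326 and 0.314 CPM in the naive libraries. Its order differed from that of Il13, since the syngeneic libraries, with 3, 11 and 16 reads, were below the naive libraries, with 36, 37 and 36 reads. Il4 rose by a log2 fold change of 5.52 ± 0.43 in allogeneic against syngeneic libraries (edgeR adjusted p = 2.17e-06) and of 3.80 ± 0.38 in allogeneic against naive libraries (edgeR adjusted p = 6.51e-06). Il4 fell in syngeneic against naive libraries by 1.72 ± 0.43 on the log2 scale (edgeR adjusted p = 0.00754). Cd4 averaged 198 ± 25.9 CPM in syngeneic and 450 ± 17.6 CPM in naive libraries (SD, n = 3 each). Per count of Cd4, the log2 ratio of the Il4 means was -0.44 and the syngeneic and naive libraries overlapped. The ratio was -1.72 by column total and -1.68 without Gm26917 and Gm42418. It was -0.97 per count of Cd3d, Cd3e and Cd3g and -1.94 per count of Cd8a and Cd8b1. On these scales the libraries did not overlap. Il13 rose in syngeneic against naive libraries by 1.73 ± 0.54 (edgeR adjusted p = 0.0229), a call that rests on few reads. It was lost without naive library 1 (edgeR adjusted p = 0.0938), naive library 3 (0.0788), syngeneic library 1 (0.0508) or syngeneic library 3 (0.0929), and the log2 fold change was 2.73 without naive library 2.

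Il5, the eosinophil growth factor gene on the same chromosome (53720794 to 53725106, plus strand), did not pass the filter and is too low to judge by size. It had 15, 6 and 21 reads in the allogeneic libraries, 1, 0 and 1 in the syngeneic libraries and none in the naive libraries. A count of 0 over the naive libraries allows up to 0.00819 CPM. The summed counts were at least 12.9-fold higher in allogeneic than in naive libraries, set against 3 counts over the naive group. They were 18.3 times those of syngeneic libraries, with an exact 95% interval of 4.75 to 156, and these limits cover counting error only. Fitted with no filter on low counts, Il5 passed in allogeneic against syngeneic (edgeR adjusted p = 0.00958) and against naive libraries (edgeR adjusted p = 0.00124). The syngeneic and naive levels of Il5 cannot be compared at these counts. An annotated antisense RNA, Gm12214, overlaps Il5, and since the sources used here do not give the strand setting of the counting, its reads and those of Il5 may be mixed.

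Basophils and mast cells, which also make interleukins 4 and 13, have 12 markers in the set used here. These summed to 75.7, 34.1 and 48.2 CPM in the allogeneic libraries, to 8.50, 26.0 and 32.3 CPM in the syngeneic libraries and to 6.61, 8.01 and 6.55 CPM in the naive libraries. Kit held much of the naive sums, and it averaged 7.21 CPM in allogeneic, 7.69 CPM in syngeneic and 5.77 CPM in naive libraries. Of 9 tested markers 5 rose in allogeneic against syngeneic libraries, against 2 without allogeneic library 1 and 3 without allogeneic library 3 or syngeneic library 2. In allogeneic against naive libraries 8 of the 9 rose, where 31.8% of all tested genes were called higher. The mast-cell protease genes Tpsab1 and Mcpt4 were at 0 in every group. Cma1, another such gene, averaged 0.337 CPM in allogeneic, 0.0272 CPM in syngeneic and 0.00826 CPM in naive libraries, and it rose in allogeneic against syngeneic libraries (edgeR adjusted p = 0.00403). Allogeneic library 1 was highest in the marker sum and in Il4 but not in Il13. Allogeneic libraries 2 and 3 had opposite orders in the marker sum and in Il4 (3.85 and 3.60 CPM). The syngeneic libraries had the same order in the marker sum and in Il4, which had 3, 11 and 16 reads there. Group 2 innate lymphoid cells are another source of interleukins 5 and 13. Of 8 markers for them, among which Gata3, Rora and Klrg1 are also expressed by T cells, 7 rose in allogeneic against syngeneic libraries. Of all tested genes 24.3% were called higher there. The 8 markers summed to 461 to 577 CPM in allogeneic, 110 to 131 CPM in syngeneic and 140 to 154 CPM in naive libraries, with Hs3st1 and Calca at 0 in naive libraries. Gata3 held much of these sums. Without it they were 205 to 262 CPM in allogeneic, 27.8 to 48.4 CPM in syngeneic and 37.15 to 46.9 CPM in naive libraries. The part of either cell type in the Il4 and Il13 levels was not tested.

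The proximal promoters of the members with the steepest rise in allogeneic against syngeneic libraries, Il13 and Il4, are printed with those of Tnf, which fell, and of Il2, which did not pass, so that members with different responses can be read side by side. Each runs 5′ to 3′ on the gene's strand over 300 bases, 250 before to 50 after the start site, from RefSeq for GRCm38.p6. Capitals mark the NFAT motif TGGAAA, the GATA-factor motif AGATAA and the AP-1 motif TGANTCA, each searched on both strands, and no 2 matches overlap here. Of 2 Il4 start sites in the table the outer is shown.
Il4, chr11:53618616-53618915, minus strand: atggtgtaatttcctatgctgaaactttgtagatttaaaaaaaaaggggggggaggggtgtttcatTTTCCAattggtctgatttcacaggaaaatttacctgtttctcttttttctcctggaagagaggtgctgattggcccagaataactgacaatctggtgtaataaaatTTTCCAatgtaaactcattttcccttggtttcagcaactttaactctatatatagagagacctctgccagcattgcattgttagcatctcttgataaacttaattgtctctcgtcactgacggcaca
Il13, chr11:53634653-53634952, minus strand: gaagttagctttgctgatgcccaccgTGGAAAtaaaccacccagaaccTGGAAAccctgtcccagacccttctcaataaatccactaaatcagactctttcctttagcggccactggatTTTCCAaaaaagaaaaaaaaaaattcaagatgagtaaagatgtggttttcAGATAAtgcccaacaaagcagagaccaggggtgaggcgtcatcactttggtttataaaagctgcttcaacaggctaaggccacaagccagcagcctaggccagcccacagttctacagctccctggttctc
Tnf, chr17:35201958-35202257, minus strand: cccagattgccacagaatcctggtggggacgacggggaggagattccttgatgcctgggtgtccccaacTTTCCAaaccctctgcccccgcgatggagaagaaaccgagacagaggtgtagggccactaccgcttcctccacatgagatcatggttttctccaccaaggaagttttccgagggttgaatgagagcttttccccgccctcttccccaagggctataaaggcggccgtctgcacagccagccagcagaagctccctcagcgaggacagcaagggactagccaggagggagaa
Il2, chr3:37125905-37126204, minus strand: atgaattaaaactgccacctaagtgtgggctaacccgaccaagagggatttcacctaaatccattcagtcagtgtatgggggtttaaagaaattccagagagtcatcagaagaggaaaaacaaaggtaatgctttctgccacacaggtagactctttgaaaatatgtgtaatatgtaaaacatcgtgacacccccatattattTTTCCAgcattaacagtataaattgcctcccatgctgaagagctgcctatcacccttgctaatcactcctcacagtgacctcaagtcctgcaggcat
The NFAT motif was found 2 times in the Il4 promoter, 3 times in the Il13 promoter and 1 time each in those of Tnf and Il2. Of 9 members with a promoter entry 7 held it, against 21.4% of 32851 promoters of the same length. The GATA motif was found in 2 of the 9, Il13 and Csf2, against 11.2% of all promoters. The AP-1 motif was found in 1 of the 9, Il17a, against 7.81% of all promoters. The Ifng promoter held none of the 3 motifs in this window. A match is a run of letters and not a measured site, and these data hold no binding or chromatin measurement. Il10 had no entry.

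Csf2, on chromosome 11 (54247271 to 54249667, minus strand), encodes granulocyte-macrophage colony-stimulating factor, which activates myeloid cells. It stood at 7.56, 6.48 and 8.51 CPM in the allogeneic libraries, at 0.460, 0.575 and 0.5995 CPM in the syngeneic libraries and at 0.0506, 0.159 and 0.131 CPM in the naive libraries. As for Ifng, the 3 groups did not overlap and had the order allogeneic, syngeneic, naive. Its log2 fold change was 3.81 ± 0.29 in allogeneic against syngeneic libraries (edgeR adjusted p = 1.69e-06), 6.12 ± 0.34 in allogeneic against naive libraries (edgeR adjusted p = 4.64e-08) and 2.32 ± 0.32 in syngeneic against naive libraries (edgeR adjusted p = 0.000174). Naive libraries held 7, 18 and 15 reads of it. Its overlapping antisense RNA Gm12223 had 17 reads over all 9 libraries.

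Il2 and Il21, whose products are both ligands of receptors with the common gamma chain, are 96.8 kb apart on chromosome 3 (Il2 at 37120523 to 37125959 and Il21 at 37222759 to 37232636, both on the minus strand). Il2, the T-cell growth factor gene, had 36, 41 and 36 reads in the allogeneic, 40, 63 and 35 in the syngeneic and 37, 34 and 35 in the naive libraries. This is 0.305, 0.232 and 0.346 CPM in allogeneic, 0.307, 0.584 and 0.323 CPM in syngeneic and 0.268, 0.300 and 0.305 CPM in naive libraries. Syngeneic library 2 was highest, and the allogeneic libraries overlapped both other groups. The log2 fold change of Il2 was -0.44 ± 0.33 in allogeneic against syngeneic libraries (edgeR adjusted p = 0.301), 0.06 ± 0.34 in allogeneic against naive libraries (edgeR adjusted p = 0.879) and 0.50 ± 0.33 in syngeneic against naive libraries (edgeR adjusted p = 0.257). The syngeneic libraries lay just above the naive libraries in CPM without passing the test, and at these counts the values do not show that Il2 was at the same level in the groups.

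Il21, which supports B-cell help and CD8+ T-cell responses, stood at 9.09, 7.73 and 10.4 CPM in the allogeneic libraries, at 1.36, 1.76 and 2.70 CPM in the syngeneic libraries and at 1.24, 1.57 and 0.959 CPM in the naive libraries. The allogeneic libraries were above all others, and the syngeneic and naive libraries overlapped. Il21 rose by 2.25 ± 0.25 on the log2 scale in allogeneic against syngeneic libraries (edgeR adjusted p = 3.47e-05) and by 2.91 ± 0.26 in allogeneic against naive libraries (edgeR adjusted p = 2.67e-06). For syngeneic against naive libraries it was 0.66 ± 0.25 (edgeR adjusted p = 0.0556), and it passed without naive library 2 (edgeR adjusted p = 0.0418) or syngeneic library 1 (0.0192), and with DESeq2 on all 9 libraries (adjusted p = 0.0211). The antisense RNA Gm12534, which overlaps Il21, had 177 reads over all 9 libraries.

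Il10, on chromosome 1 (131019845 to 131024974, plus strand), encodes interleukin 10, which dampens inflammation and is made by regulatory and effector T cells, B cells and macrophages. It stood at 6.33, 7.75 and 4.92 CPM in the allogeneic libraries, at 0.499, 0.621 and 0.443 CPM in the syngeneic libraries and at 0.202, 0.265 and 0.357 CPM in the naive libraries. The groups did not overlap. Il10 rose by 3.62 ± 0.28 on the log2 scale in allogeneic against syngeneic libraries (edgeR adjusted p = 1.88e-06) and by 4.58 ± 0.30 in allogeneic against naive libraries (edgeR adjusted p = 1.67e-07). For syngeneic against naive libraries it was 0.96 ± 0.28 (edgeR adjusted p = 0.0177), and the call was lost without naive library 1 (edgeR adjusted p = 0.0796), naive library 2 (0.0523) or syngeneic library 2 (0.063). A set of 13 B-cell and plasma-cell markers summed to 1014 to 1556 CPM in allogeneic, 542 to 992 CPM in syngeneic and 471 to 496 CPM in naive libraries, and none was at 0. Ighm, the mu heavy chain gene, held most of these sums, and without it they were 71.2 to 101 CPM in allogeneic, 90.4 to 142 CPM in syngeneic and 22.9 to 28.3 CPM in naive libraries. In allogeneic against syngeneic libraries 1 of them rose, a call lost without allogeneic library 3, and 6 fell, and their part in the Il10 level was not tested.

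Il17a, the type 17 gene on chromosome 1 (20730905 to 20734496, plus strand), did not pass the filter and is too low to judge by size. It had 5, 4 and 18 reads in the allogeneic, 6, 6 and 10 in the syngeneic and 0, 2 and 0 in the naive libraries. Allogeneic library 3 held most of the allogeneic reads. The ratio of summed counts was 1.07 in allogeneic against syngeneic libraries, with an exact 95% counting interval of 0.585 to 1.97. It was 12.4 (3.12 to 108) in allogeneic against naive and 11.6 (2.86 to 102) in syngeneic against naive libraries, where the naive group held 2 reads, and these intervals leave out the spread between libraries. Fitted with no filter, Il17a did not pass in allogeneic against syngeneic libraries (edgeR adjusted p = 0.866) and passed in allogeneic against naive (0.0184) and syngeneic against naive libraries (0.0398). It also passed the usual filter in most fits with 1 library left out, where the filter asks for fewer libraries. There it was not called against naive libraries without naive library 1 or naive library 3 (edgeR adjusted p = 0.0551 to 0.119), nor in syngeneic against naive libraries without syngeneic library 2 (0.0601).

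**Figure D2:**
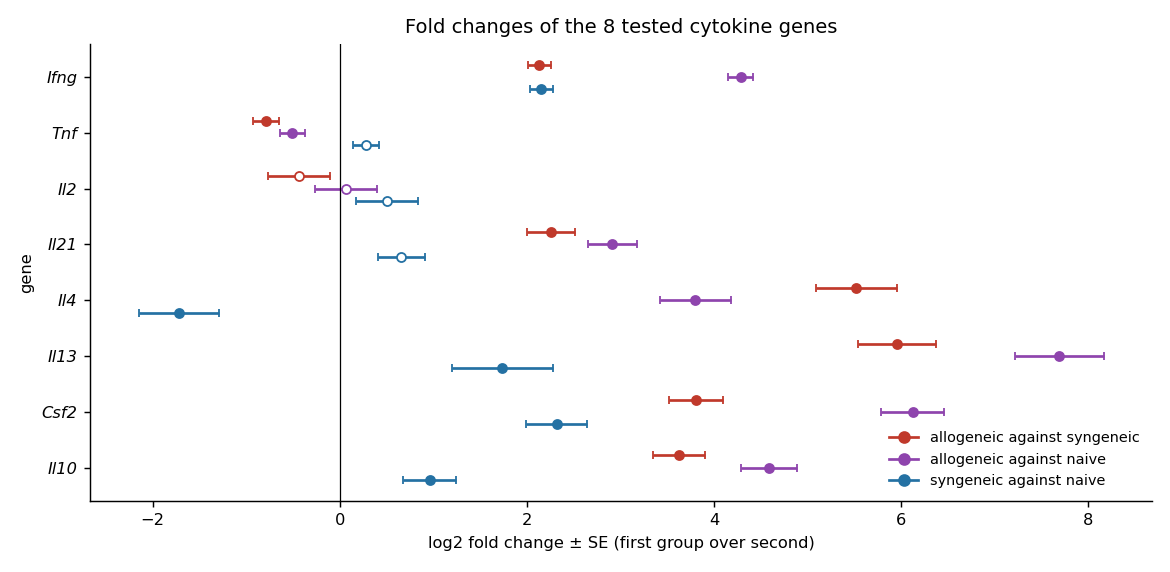
Log2 fold change ± SE (edgeR, first group over second) of the 8 tested cytokine genes in 3 comparisons, with filled points for calls at an adjusted p under 0.05 and open points for the rest. Il13 had the highest values against both other groups, Tnf was negative in both allogeneic comparisons, and Il4 was positive in the allogeneic comparisons and negative in syngeneic against naive libraries.

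Levels of different genes were compared per kilobase of exon. The 10 members summed to 71.2 ± 5.41 CPM per kb in allogeneic, 25.2 ± 1.31 CPM per kb in syngeneic and 15.6 ± 0.551 CPM per kb in naive libraries (SD, n = 3 each). Without Tnf the sums were 62.6 ± 3.73, 10.4 ± 0.935 and 3.05 ± 0.546 CPM per kb in allogeneic, syngeneic and naive libraries in that order. Ifng made up 50.6 ± 0.386% of the sum in allogeneic libraries, 33.1 ± 2.69% in syngeneic libraries and 12.3 ± 1.97% in naive libraries. Tnf made up 12.0 ± 1.64% in allogeneic, 58.8 ± 4.16% in syngeneic and 80.5 ± 3.01% in naive libraries. Csf2 held 13.2 ± 0.988% in allogeneic, 2.71 ± 0.411% in syngeneic and 0.898 ± 0.428% in naive libraries, and Il13 held 9.77 ± 0.479%, 0.437 ± 0.195% and 0.224 ± 0.206% in the same order of groups.

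In allogeneic libraries the order of the length-scaled levels was Ifng at 36.0 CPM per kb, Csf2 at 9.40, Tnf at 8.58, Il13 at 6.97, Il10 at 4.83, Il4 at 3.25, Il21 at 1.73, Il2 at 0.257, Il5 at 0.0788 and Il17a at 0.0678 CPM per kb. Csf2 and Tnf, Tnf and Il13, and Il5 and Il17a overlapped as neighbours in that order, and the other neighbours did not. The place of Il21 depends on its 5.26 kb of exon, merged over 3 transcripts, where the other members have 0.8 to 1.64 kb. Before length scaling Il21 averaged 9.08 CPM, above Il13 (8.40), Csf2 (7.52), Il10 (6.33) and Il4 (3.99). In syngeneic libraries Tnf, at 14.8 CPM per kb, was above Ifng, at 8.33, and Csf2, at 0.681 CPM per kb, with no overlap, and the remaining members were at 0.398 CPM per kb or lower. In naive libraries Tnf, at 12.6 CPM per kb, was above Ifng, at 1.92 CPM per kb, with no overlap. The 8 others were at 0.254 CPM per kb or lower, and there each neighbour in the order overlapped the next.

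**Figure D3:**
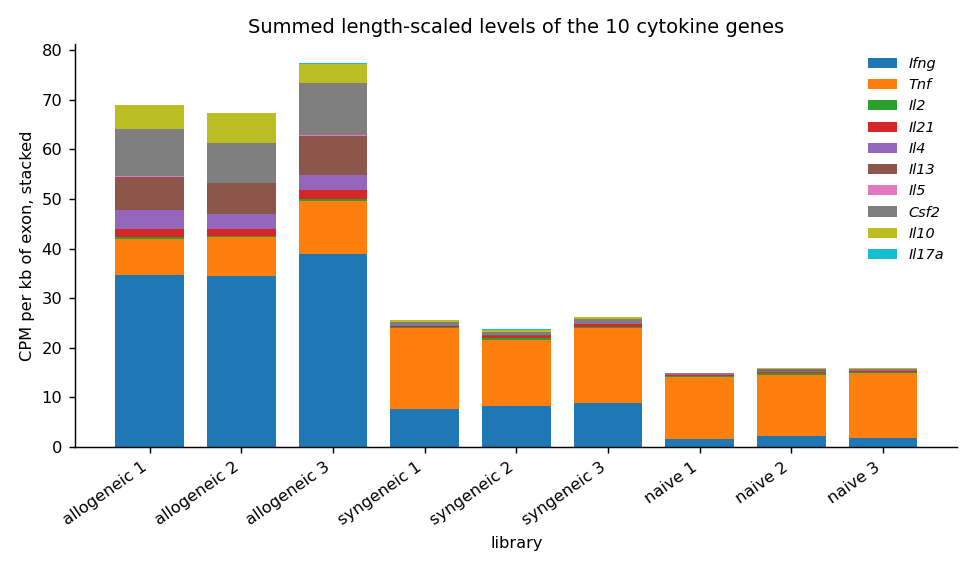
Stacked levels of the 10 cytokine genes in each library, in CPM per kb of exon. Ifng is the largest part of the allogeneic bars and Tnf of the syngeneic and naive bars, and the allogeneic bars reach 67.3 to 77.4 CPM per kb against 23.7 to 26.3 in syngeneic and 15.0 to 16.0 in naive libraries.

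The share of T-cell and of CD4+ or CD8+ transcripts differed between the groups, so the members were also set against counts of Cd3d, Cd3e and Cd3g, of Cd4 and of Cd8a and Cd8b1. For the 7 called members in allogeneic against syngeneic libraries, the direction and the separation of the libraries were kept in all 35 values over 5 other scales. The sizes differed. The log2 ratio of the Ifng means was 2.12 by column total, 1.55 per Cd3 count, 0.99 per Cd4 count and 2.44 per Cd8 count, and that of Tnf was -0.79, -1.34, -1.89 and -0.45 on the same scales. For Il21 it was 2.23 by column total and 1.07 per Cd4 count, and for Il13 it was 5.96 and 4.82. In syngeneic against naive libraries the called members kept their direction in all 25 values, and the libraries were separate in 21 of them. In that comparison Tnf, which was not called, had a log2 ratio of 0.24 by column total, 1.44 per Cd4 count and -0.05 per Cd8 count.

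**Figure D4:**
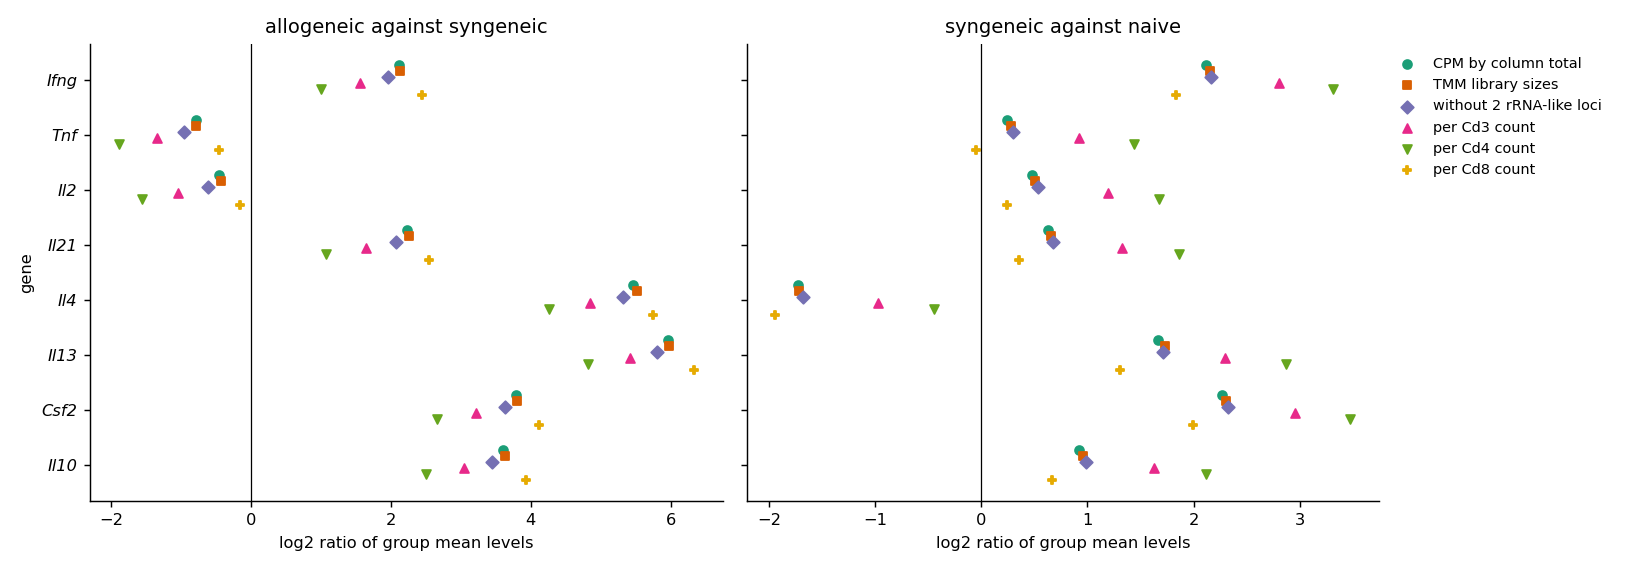
Log2 ratio of the group mean levels of 8 cytokine genes on 6 scales, for allogeneic against syngeneic libraries (left) and syngeneic against naive libraries (right). In the left panel Tnf and Il2 lie below 0 and the other genes above 0 on every scale, with the per-Cd4 values lowest, and in the right panel Tnf crosses 0 on the per-Cd8 scale.

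Several members lie beside each other or beside other cytokine genes. Of 58 tested protein-coding genes within 200 kb of a member, other than the members, 16 rose and 10 fell in allogeneic against syngeneic libraries, with a median log2 fold change of -0.04. Of all tested genes 24.3% were called higher and 20.7% were called lower in this comparison. Beside Tnf, the lymphotoxin genes Lta (1.16 kb away) and Ltb (3.06 kb away), whose products form lymphoid tissue signals, fell by 1.87 ± 0.18 and 0.94 ± 0.14 on the log2 scale (edgeR adjusted p = 9.22e-06 and 0.000274). Lta averaged 2.75 ± 0.79 CPM in allogeneic, 10.0 ± 1.17 CPM in syngeneic and 12.4 ± 0.901 CPM in naive libraries. Beside Il4, Kif3a, a kinesin motor subunit of cilia, rose by 0.90 on the log2 scale (edgeR adjusted p = 0.00164), with means of 5.32 CPM in allogeneic libraries against 2.90 CPM in syngeneic libraries. Rad50, the DNA repair gene between Il13 and Il5, averaged 63.5 ± 4.28 CPM in allogeneic libraries against 65.1 ± 4.69 CPM in syngeneic libraries (log2 fold change -0.02, edgeR adjusted p = 0.799), and Sowaha (0.127 CPM in allogeneic libraries against 16.9 CPM in syngeneic libraries) fell by 7.03 on the log2 scale. Rad50 and Sowaha were chosen after their values were seen. Beside Csf2, Il3, another myeloid growth factor gene, averaged 0.483 CPM in allogeneic libraries, against 0.0886 CPM in syngeneic libraries, and was at 0 in naive libraries (log2 fold change 2.41 ± 0.69 in allogeneic against syngeneic libraries, edgeR adjusted p = 0.0189, and 0.0844 without allogeneic library 3). Il17f, the neighbour and paralog of Il17a, fell by 1.31 on the log2 scale (edgeR adjusted p = 0.00274), to 0.288 CPM in allogeneic libraries against 0.724 CPM in syngeneic libraries. Beside Il10, Mapkapk2 (28.7 kb away) rose by 0.92 ± 0.09 on the log2 scale (edgeR adjusted p = 1.50e-05). It averaged 186 CPM in allogeneic libraries against 99.9 CPM in syngeneic libraries. Of 8 protein-coding neighbours of Ifng none was tested.

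**Figure D5:**
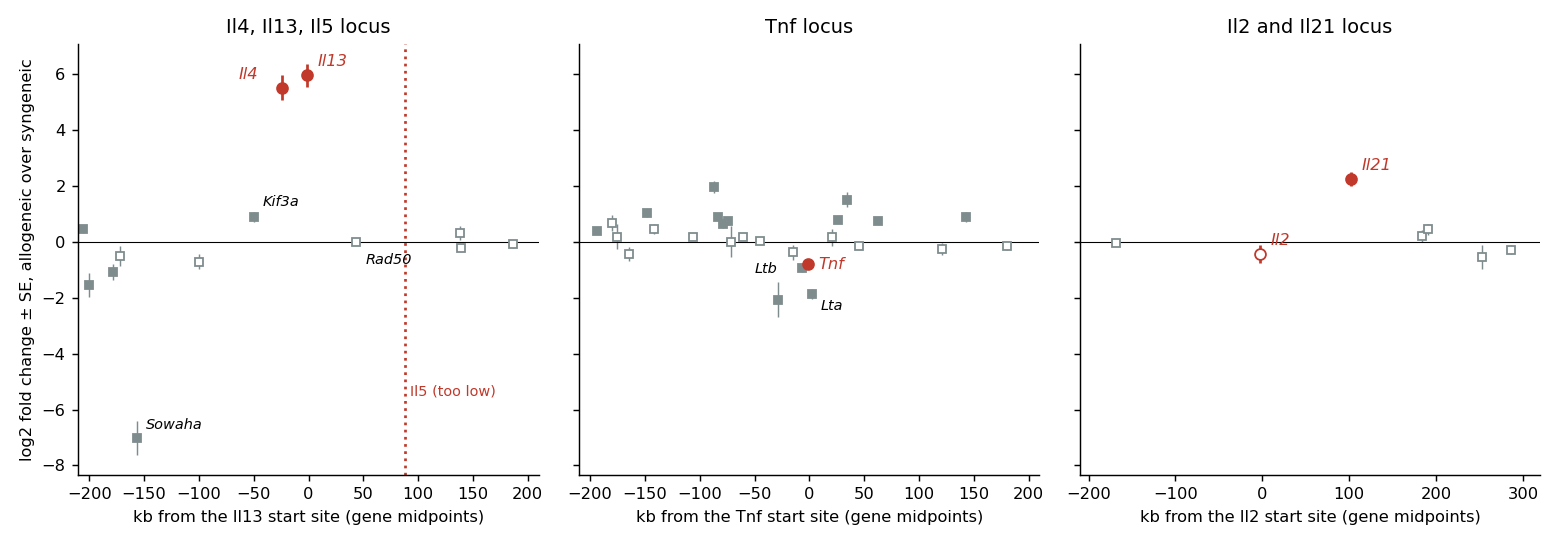
Log2 fold change ± SE in allogeneic over syngeneic libraries of tested genes around Il13, Tnf and Il2, against the distance of each gene's midpoint from the start site of the named member in kb. Red circles are members, grey squares are neighbours, filled symbols passed the test, and the dotted line marks Il5, which was not tested; Il4 and Il13 stand above their tested neighbours, Tnf lies with Lta and Ltb below 0, and Il21 is above 0 where Il2 did not pass.

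Other cytokine and cytokine-like genes of T cells, 28 in the list used here and 23 of them tested, had 12 genes higher and 3 lower in allogeneic against syngeneic libraries, with a median of 0.78, and 5 were lower without allogeneic library 2 or syngeneic library 1. For this list and those that follow, the shares over all tested genes in this comparison were 24.3% called higher and 20.7% called lower. Il6 rose by 5.95 ± 0.63 and Csf1, the macrophage growth factor gene, by 5.01 ± 0.20 on the log2 scale. Csf1 averaged 156 CPM in allogeneic, 4.95 CPM in syngeneic and 5.38 CPM in naive libraries. Ccl3, a chemokine gene of activated T cells, rose by 2.69 ± 0.26. The members of the list that fell were Lta, Ltb and Il17f.

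Of 19 receptor chains for the member cytokines, 18 had a row in the table and were tested, and 6 rose and 5 fell in allogeneic against syngeneic libraries (median -0.25), and 8 were lower without syngeneic library 1. The chains of the interferon gamma receptor went apart. Ifngr1, the ligand-binding chain, rose by 1.33 ± 0.10, to 388 CPM in allogeneic libraries against 156 CPM in syngeneic libraries, and Ifngr2, the signalling chain, fell by 2.19 ± 0.12 on the log2 scale, to 3.92 CPM in allogeneic libraries against 18.0 CPM in syngeneic libraries. Il2ra, the alpha chain of the high-affinity receptor for interleukin 2, rose by 2.19 ± 0.11 where Il2 itself did not pass. Tnfrsf1b, the TNF receptor 2 gene, rose by 1.57 ± 0.11 where Tnf fell. Il4ra, shared by interleukins 4 and 13, fell by 1.16 ± 0.11, to 135 CPM in allogeneic libraries against 302 CPM in syngeneic libraries, and Il10rb fell by 0.67 ± 0.09.

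Of 23 lineage regulators 16 rose and 2 fell in allogeneic against syngeneic libraries (median 0.57). The largest rises were in Ahr (3.13 ± 0.12), the aryl hydrocarbon receptor, Maf (3.02 ± 0.13), an activator of Il4, Il10 and Il21, and Prdm1 (2.87 ± 0.13), which encodes Blimp-1. Eomes, a T-box factor, fell by 1.23 ± 0.14 on the log2 scale. In syngeneic against naive libraries 6 of the 23 rose and 11 fell (median -0.19), where 22.4% of all tested genes were called higher and 19.5% lower.

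Of 26 genes of antigen receptor signalling 10 rose and 6 fell in allogeneic against syngeneic libraries (median 0.20). The costimulator gene Icos (2.52 ± 0.09) and the early growth response genes Egr3 (1.26 ± 0.14) and Egr2 (1.25 ± 0.14) rose. The AP-1 genes Fosb, Fos and Jun fell by 2.51 ± 0.33, 2.44 ± 0.26 and 2.03 ± 0.18 on the log2 scale. Fos averaged 34.6 CPM in allogeneic, 191 CPM in syngeneic and 49.9 CPM in naive libraries. Of 14 genes that act on the decay or translation of cytokine messages 2 rose and 2 fell (median -0.01). Zfp36, which encodes tristetraprolin, a factor that destabilises messages such as that of Tnf, fell by 1.36 ± 0.13, and its relative Zfp36l1 fell by 0.82 ± 0.09. Zc3h12d rose by 0.85 ± 0.09. The second gene counted as higher, the exonuclease gene Xrn1, differed by 0.23 ± 0.09 on the log2 scale (edgeR adjusted p = 0.0465) and was not called in 13 of 19 other fits, among them those without any 1 of the allogeneic or syngeneic libraries or naive library 1. With upper quartile normalization 1 gene of the 14 was higher and 4 were lower.

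Of 22 genes known to respond to member cytokines 6 rose and 8 fell in allogeneic against syngeneic libraries (median -0.15), while against naive libraries 11 rose and 4 fell in allogeneic libraries and 10 rose in syngeneic libraries. Of all tested genes 31.8% were called higher and 25.9% lower in allogeneic against naive libraries. In syngeneic against naive libraries 22.4% were called higher. Among the 22 genes, the largest rises in allogeneic against syngeneic libraries were in Socs2 (1.41 ± 0.23), Cish (1.00 ± 0.08) and Bcl3 (0.73 ± 0.20, a call lost without allogeneic library 3 or syngeneic library 2). Socs2 and Cish are targets of STAT5. Cxcl10, an interferon-induced chemokine gene, fell by 1.49 ± 0.32, and Tnfaip3, which encodes the NF-kappaB inhibitor A20, fell by 1.20 ± 0.18. None of these genes was tested for a dependence on a member.

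The genes with the level pattern closest to that of Ifng over the 9 libraries were Adap1, Kcnk5 and Osbpl3, by the root mean square difference of centred log2 CPM, which was 0.126, 0.129 and 0.156. Adap1 averaged 95.4 CPM in allogeneic, 23.9 CPM in syngeneic and 6.03 CPM in naive libraries. For Il13 the nearest were Gm27166 (0.631), Lgals7 (0.757) and Trp73 (0.762), which is a looser likeness. Lgals7 averaged 11.5 ± 1.31 CPM in allogeneic, 0.609 ± 0.157 CPM in syngeneic and 0.151 ± 0.0758 CPM in naive libraries. For Il2 the nearest were Abce1 (0.179), Naa15 (0.186) and Cbwd1 (0.188), with Abce1 averaging 81.0 CPM in allogeneic, 105 CPM in syngeneic and 81.4 CPM in naive libraries.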

How the data were processed

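Stranded libraries were made from total RNA depleted of ribosomal RNA, per the labels' protocols. The authors deposited raw read counts per Ensembl gene for 9 libraries, and HTSeq 0.6.1, Bowtie2 2.2.1, TopHat2 2.0.13, FastQC 0.11.3 and GRCm38 stand in the list of tools and builds from the notes of the submitters. Those sources do not give the annotation release or the strand setting. Groups came from the titles; the strain tag, which names the syngeneic recipient strain for every library, was not used. The labels do not say whether naive libraries came from separate mice, so p-values measure only the spread between these libraries, which may be technical.

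Symbols, positions and merged exon lengths came from GENCODE M21, which matched 29014 of 29229 identifiers. Genes were kept by filterByExpr, scaled by TMM and tested with edgeR 4.0.16 (quasi-likelihood) in 1 model of 9 libraries with group as the only term. DESeq2 1.42.0, limma 3.58.1 (voom), other scalings and filters, single libraries left out and a replicate block were alternatives. The test was checked on simulated counts with known changes. Replicates were compared by a chi-square over genes (22.5 to 362 per degree of freedom) and were not alike within sampling noise. Members and lists were chosen with earlier results of these data known. Named were all members, up to 3 called genes of each list with the largest rise and fall in allogeneic against syngeneic libraries at a mean of at least 1 CPM in either group, the nearest called neighbours, and markers at 0. Ncr1, Klra4, Klra9, Klre1, Cma1, Kit, Rad50 and Sowaha were named after their values were seen. Protein sequences were not used here. The values of 1 gene of the lists are not reported here.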

Additional observations from a re-analysis of the deposited data

How the results depend on the processing

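Over 19 other fits, the 6 members that rose and the 1 that fell in allogeneic against syngeneic libraries kept their direction and their call, as did the 6 and the 1 in allogeneic against naive libraries. Leaving out 1 library at a time gave 6 to 7 members higher and 1 lower against syngeneic libraries and 6 to 8 higher and 1 lower against naive libraries. The members added were Il5 and Il17a, which then passed the filter. The filter asks for fewer libraries when a group has lost 1. Il5 then passed through allogeneic libraries 1 and 3, with 15 and 21 reads, so its added calls follow from the filter and are no further support. In syngeneic against naive libraries 2 to 5 members were higher without 1 library, and 2 with limma-voom, against 4. Il10 and Il13 were the calls lost with limma-voom (adjusted p = 0.081 and 0.0561), and Il13 was also lost when only the 2 groups were fitted (edgeR adjusted p = 0.0772); the cause was not tested. The log2 fold change of Il2 in allogeneic against naive libraries turned to -0.17 with upper quartile normalization, which moved the median of all genes by -0.24 there, and ran from -0.085 to 0.24 without 1 library, with -0.03 without allogeneic library 1 and -0.085 without allogeneic library 3. Counts of all genes called stayed within 1.5 times of the main count in all 114 values.

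Same-numbered libraries deviated from their group means with correlations of -0.118 to 0.265 in 9 pairs, 1 of them over 0.1, and 1 library of 9 correlated best with its own number in both other groups, so the numbers were not taken to pair libraries. A replicate block called 4657 genes higher and 4012 lower in allogeneic against syngeneic libraries, against 4766 and 4066 without it, and left the number of members called at 6 and 1. It called 6135 higher and 5091 lower in allogeneic against naive libraries and 4325 higher and 3709 lower in syngeneic against naive libraries. Of 684 counts for gene lists other than the marker sets 28 moved by over 1.5 times, among them targets higher in allogeneic against naive libraries (6 against 11 with upper quartile normalization), and neighbours called lower in allogeneic against syngeneic libraries went to 18 against 10 with that normalization. Counts of the marker sets moved too. In allogeneic against syngeneic libraries, T-cell markers called higher went to 11 against 7 without syngeneic library 1. Basophil and mast-cell markers called higher went to 3 against 5 with the replicate block. Macrophage and monocyte markers called lower went to 5 against 11 with a filter at 1 CPM in 3 libraries. At this depth Il5 and Il17a were below the filter with all 9 libraries, and calls of Il10, Il13 and Il4 in syngeneic against naive libraries rested on 2 to 67 reads a library.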
